A study of Mus musculus with 2 samples.

Results

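The cells described here were Pax7+ myogenic progenitors with few or no transcripts of the mitotic genes Mki67 and Top2a, taken from a single-cell RNA-seq data set of tdTomato+ cells of mouse embryos at embryonic day 14. They were chosen on unique molecular identifiers (UMIs), each of which stands for 1 captured transcript. A barcode was kept if it held at least 1000 UMIs with at most 10% from mitochondrial genes, and it was a member if it held at least 1 UMI of Pax7, at least 1 of Myod1 or Myf5, at most 4 of Myog, at most 2 of Mki67 and Top2a together and 0 of Pecam1 and Cdh5. The rule found 349 cells among 27766 barcodes, of which 22086 were kept. All levels of these 8 genes therefore describe the choice and are no finding, and a comparison of the members with other cells of the same libraries is a description as well, since the rule set both sides of it.

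Trunks and limbs of embryos were dissociated and tdTomato+ cells were sorted, in one group from SRSF2f/f/Myf5-Cre/tdT embryos and in the other from SRSF2f/w/Myf5-Cre/tdT embryos. Embryos of both groups carried Myf5-Cre, a tdTomato reporter and at least 1 floxed allele of Srsf2, which encodes a splicing factor of the serine/arginine-rich (SR) family, so neither group was free of Cre or of a floxed allele. Myf5-Cre acts in cells that express or once expressed Myf5, and these include cells that are not muscle. Each group was 1 library, the number of embryos behind it is not given in the sources used here, and the differences below therefore have no replicate check. The library labelled SRSF2f/f held 15268 barcodes and 156093779 UMIs (median 9219 UMIs per barcode), and the library labelled SRSF2f/w held 12498 barcodes and 128116615 UMIs (median 8105.5). After filtering, 12144 barcodes (79.5%) and 9942 barcodes (79.5%) remained.

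The labels of the libraries conflict. The deposited run summary of the sample titled SRSF2f/f is named as wild type, and that of the sample titled SRSF2f/w is named as knockout. The quality figure of the study heads the first of these summaries as heterozygous, so an exchange of the sample titles is possible and was not settled here. Barcodes of the muscle lineage, with Myod1 or Myf5 or at least 5 Myog UMIs, numbered 2897 of 12144 in the library labelled SRSF2f/f and 172 of 9942 in the library labelled SRSF2f/w. Srsf2 transcripts over all barcodes stood at 217 CPM (UMIs of a gene per 1000000 UMIs summed over the population) in the library labelled SRSF2f/f and at 152 CPM in the library labelled SRSF2f/w, so the level was higher where the title gives 2 floxed alleles. Srsf2 lies at chr11:116849901-116853094 on the minus strand of GRCm38. Its reads come from the 3′ end of the transcript. The study draws the floxed allele as a box between loxP sites, without exons, so it is open whether these reads lie in the deleted stretch, and this level does not count the cells that lost the gene. Each library is therefore named by its label below, and no difference is assigned to loss of Srsf2. The libraries shared 74 barcode sequences, and 1 member of the library labelled SRSF2f/f and 0 members of the other carried such a barcode.

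Pax7 is a paired-box transcription factor that marks the progenitors of skeletal muscle in the embryo and the satellite cells of adult muscle. Myf5 and Myod1 are basic helix-loop-helix factors that commit these cells to the muscle lineage, and Myog acts downstream of them as the cells leave the cell cycle, align and fuse into myotubes. Notch signalling is known to hold progenitors in the undifferentiated state, and Msc (also called MyoR) is a related helix-loop-helix factor that represses muscle genes.

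The Mki67/Top2a-low Pax7+ cells formed 2.79% of the kept barcodes of the library labelled SRSF2f/f (339 of 12144; 95% exact Clopper-Pearson interval 2.51% to 3.10%) and 0.101% of those of the library labelled SRSF2f/w (10 of 9942; 0.0482% to 0.185%). The share was 27.8-fold higher in the library labelled SRSF2f/f (14.9- to 58.4-fold). Since the titles and the summaries conflict, this is not a statement about embryos with 2 floxed alleles. These and all later intervals cover counting error only. Neighbouring muscle populations differed in the same direction, so the cells were not alone in this. Mki67/Top2a-high Pax7+ cells, which met the same rule but held at least 3 UMIs of Mki67 and Top2a, were 22.4-fold higher (15.4- to 34.0-fold; 767 against 28 cells). Myog-high cells, with at least 5 Myog UMIs and 0 of Pecam1 and Cdh5, were 13.7-fold higher (10.4- to 18.3-fold; 920 against 55 cells). Pax7-zero cells, which met the rule except that they held 0 Pax7 UMIs, were 11.4-fold higher (7.87- to 17.1-fold; 418 against 30 cells). Endothelial cells (at least 3 UMIs of Pecam1 and Cdh5) differed the other way, at 3.69% in the library labelled SRSF2f/f and 11.1% in the library labelled SRSF2f/w.

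Within the muscle lineage the gap was much smaller. Among the Mki67/Top2a-low and Mki67/Top2a-high Pax7+ cells of the library labelled SRSF2f/f, 30.7% were Mki67/Top2a-low (339 of 1106; 27.9% to 33.5%). The library labelled SRSF2f/w had 26.3% (10 of 38; 13.4% to 43.1%), and the intervals overlapped. Pax7+ barcodes that failed the other conditions of the rule were not counted in this share. Of all barcodes with Myod1 or Myf5, or with at least 5 Myog UMIs, the members made up 11.7% (339 of 2897, 10.6% to 12.9%) and 5.81% (10 of 172, 2.82% to 10.4%). Here the intervals just missed each other. All these percentages are shares of sorted tdTomato+ barcodes. A loss of muscle cells in the embryo, a difference in the sort and a difference between the embryos used cannot be told apart with 1 library per label.

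**Figure D1:**
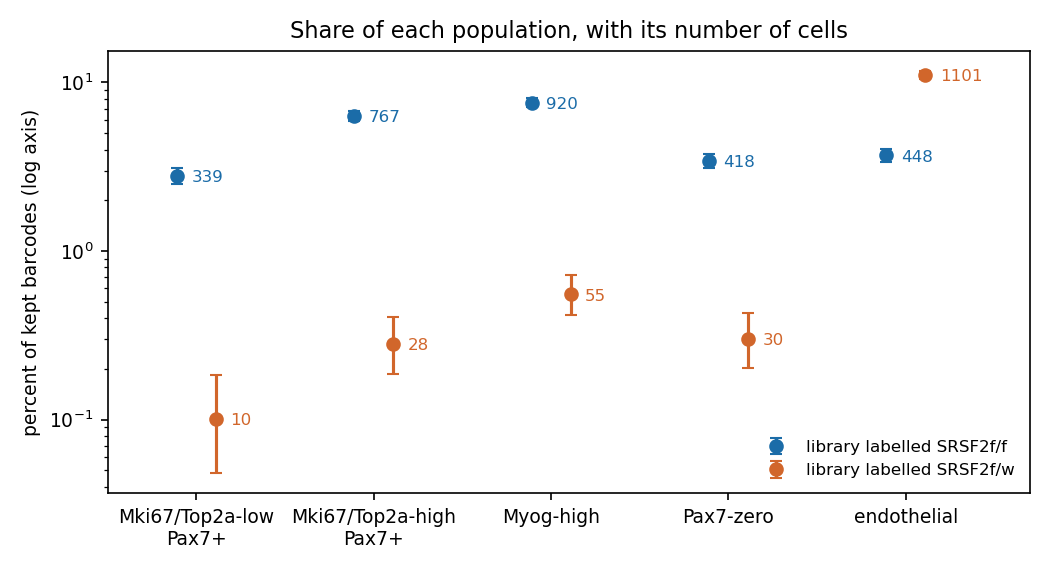
Percent of kept barcodes (log axis) in 5 populations, with 95% exact intervals as bars, the number of cells beside each point and the libraries in blue (labelled SRSF2f/f) and orange (labelled SRSF2f/w). The 4 muscle populations sit higher in the library labelled SRSF2f/f, and the endothelial cells sit higher in the library labelled SRSF2f/w (1101 against 448 cells).

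The genes of the rule, given as description, were sparse. In the library labelled SRSF2f/f, 125 members held 1 Pax7 UMI, 91 held 2 and 123 held 3 or more, with 8 as the highest. Myf5 alone was found in 100 members (29.5%), Myod1 alone in 138 (40.7%) and both in 101 (29.8%). Myog was at 0 UMIs in 270 members (79.6%), and Mki67 and Top2a together were at 0 in 142, at 1 in 130 and at 2 in 67. The 10 members of the library labelled SRSF2f/w included 3 Myf5-only, 4 Myod1-only and 3 double-positive cells, and Myog was at 0 in all 10. The median depth was 12001 UMIs (range 4379 to 54491) in the first library and 11847 (7870 to 18676) in the second.

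Summed over cells, Pax7 (chr4:139737062-139833528, minus strand of GRCm38) stood at 183 CPM in the members of the library labelled SRSF2f/f and at 204 CPM in those of the library labelled SRSF2f/w, against 156 CPM in Mki67/Top2a-high cells, 20.5 CPM in Myog-high cells and 4.60 CPM in endothelial cells of the first library. Myod1 (chr7:46376474-46379099, plus strand) stood at 134 and 155 CPM in members and at 195 CPM in Myog-high cells, and Myf5 (chr10:107482908-107486134, minus strand) at 85.3 and 73.3 CPM in members and at 4.46 CPM in Myog-high cells. The selected genes thus ordered the populations as the rule was built to do, with Myog at 23.4 CPM in members and 1217 CPM in Myog-high cells. Single members of the library labelled SRSF2f/f ranged from 36.7 to 856 CPM of Pax7, with a median of 155 CPM, so that 1 UMI more or less moved a cell widely.

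The edges of the rule differed in sharpness in the library labelled SRSF2f/f. The 67 members with 2 UMIs of Mki67 and Top2a had 54.5 CPM of Cdk1, the kinase that drives entry into mitosis, and the 48 cells just outside with 3 UMIs had 45.9 CPM, whereas 580 cells with 10 or more had 217 CPM. The 8 members with 3 or 4 Myog UMIs had 1322 CPM of the sarcomeric actin Actc1, and the 2 cells just outside with 5 or 6 had 2144 CPM. The 125 members with 1 Pax7 UMI had 147 CPM of Msc, and the 418 Pax7-zero cells had 38.5 CPM. This step was 77.2 CPM (3 UMIs) against 68.0 CPM (23 UMIs) in the library labelled SRSF2f/w. A further 12 cells failed only because they held 1 or 2 UMIs of Pecam1 and Cdh5.

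The label of muscle progenitors was borne out by Msc and some other genes outside the rule, while the progenitor lists were split against cells outside the muscle lineage. The label of non-cycling cells was not borne out, since low G2 and M levels follow from the rule and S phase genes went against it, as given with the cell cycle lists. Msc (chr1:14753346-14755992, minus strand of GRCm38) stood at 149 CPM in the members of the library labelled SRSF2f/f and at 187 CPM in those of the library labelled SRSF2f/w, against 2.53 CPM in the 8940 cells of the first library that held no UMI of Pax7, Myf5 or Myod1 and at most 4 of Myog (cells outside the muscle lineage, endothelial cells included). At an equal depth of 5000 UMIs per cell, Msc was seen in 46.4% of members (157 of 338; 68.4% before thinning) and in 2.34% of endothelial cells (10 of 428), which should lack it and whose UMIs mark the background of free RNA. The median depths were 12001 and 13803 UMIs. Thinning left out 1 member and 20 endothelial cells that were shallower. None of the 448 endothelial cells of the library labelled SRSF2f/f passed the other conditions of the rule, which allows a share of up to 0.820%.

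**Figure D2:**
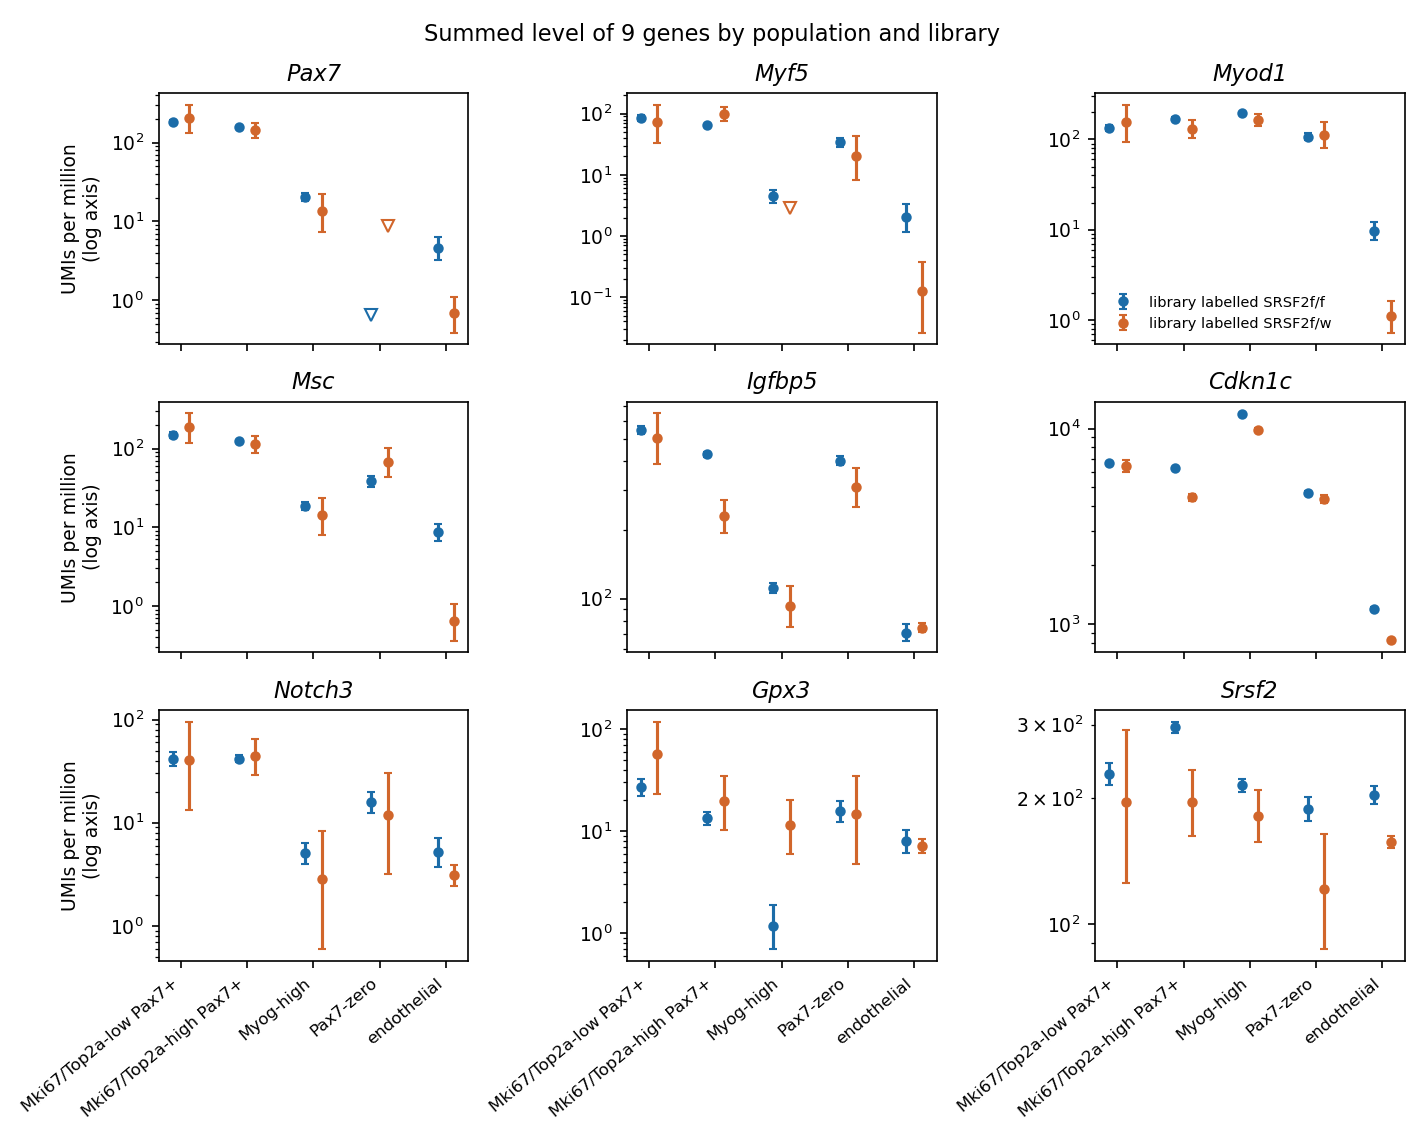
Summed level of 9 genes in CPM (log axes) by population and library, with 95% exact Poisson intervals, and open triangles at the limit of 3 counts where no UMI was seen. The first and second populations, low and high in Mki67 and Top2a, lie close together for Msc, Notch3 and Cdkn1c in the library labelled SRSF2f/f, and the Myog-high cells lie well below them for Msc, Igfbp5, Notch3 and Gpx3 and above them for Cdkn1c.

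Markers of other lineages summed to lower levels in members than in cells outside the muscle lineage of the library labelled SRSF2f/f, and some single members held many of them. Of 4 endothelial markers, Pecam1 and Cdh5 were at 0 by the rule. In the library labelled SRSF2f/f, Emcn was at 0 as well and Kdr had 2 UMIs. Fibroblast markers summed to 307 CPM (most abundant gene Col1a1, 215 CPM; 0 of 6 genes at 0), against 2889 CPM in cells outside the muscle lineage, and chondrocyte markers summed to 288 CPM (Col2a1, 249 CPM; 0 of 3 genes at 0), against 3598 CPM. At equal depth Col1a1 was found in 37.3% of members and in 39.7% of endothelial cells. The spread between members was wide, with 23 of the 339 holding 10 or more fibroblast marker UMIs against a median of 1. In the library labelled SRSF2f/f, Schwann cell markers summed to 7.01 CPM, immune markers to 3.27 CPM with Ptprc at 0, epithelial markers to 2.34 CPM, pericyte markers to 2.10 CPM and mast cell markers to 1.64 CPM. One member held 14 of the 30 Schwann marker UMIs, and a pair of members held 147 and 142 of the 1232 chondrocyte marker UMIs, against a median of 1. In the 10 members of the library labelled SRSF2f/w, Schwann, immune and pericyte markers were all at 0, and fibroblast markers summed to 7 UMIs. Kdr and Emcn, the endothelial markers outside the rule, were also at 0 there. A single barcode of 54491 UMIs held 353 of the 614 neural marker UMIs (57.5%), with 286 UMIs of Nefm, 2 of Pax7, 1 of Myod1 and 0 of Msc. A second barcode, of 15987 UMIs, held 4398 of the 4638 erythroid marker UMIs (94.8%). Both were from the library labelled SRSF2f/f, and the counts of genes past 2-fold are given without them as well.

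The cell cycle lists showed where the members stood. After thinning to 5000 UMIs, the summed UMIs of 22 genes of G2 and M phase had a median of 2 per cell in members (quartiles 1 to 3.75), 13 in Mki67/Top2a-high cells (7 to 20) and 2 in 1000 cells drawn from those outside the muscle lineage (1 to 4). The 23 genes of S phase gave another order. Their sum had a median of 9 in members (5 to 13), against 13 in Mki67/Top2a-high cells (9 to 19), 2 in Myog-high cells (1 to 8) and 3 outside the muscle lineage (2 to 6). The 10 members of the library labelled SRSF2f/w had medians of 8 for the S phase and 2.5 for the G2 and M phase genes. Members thus carried S phase transcripts at a level between those of Mki67/Top2a-high cells and of other cells. The low G2 and M sums were fixed by the limit on Mki67 and Top2a and are no support for the label of non-cycling cells.

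**Figure D3:**
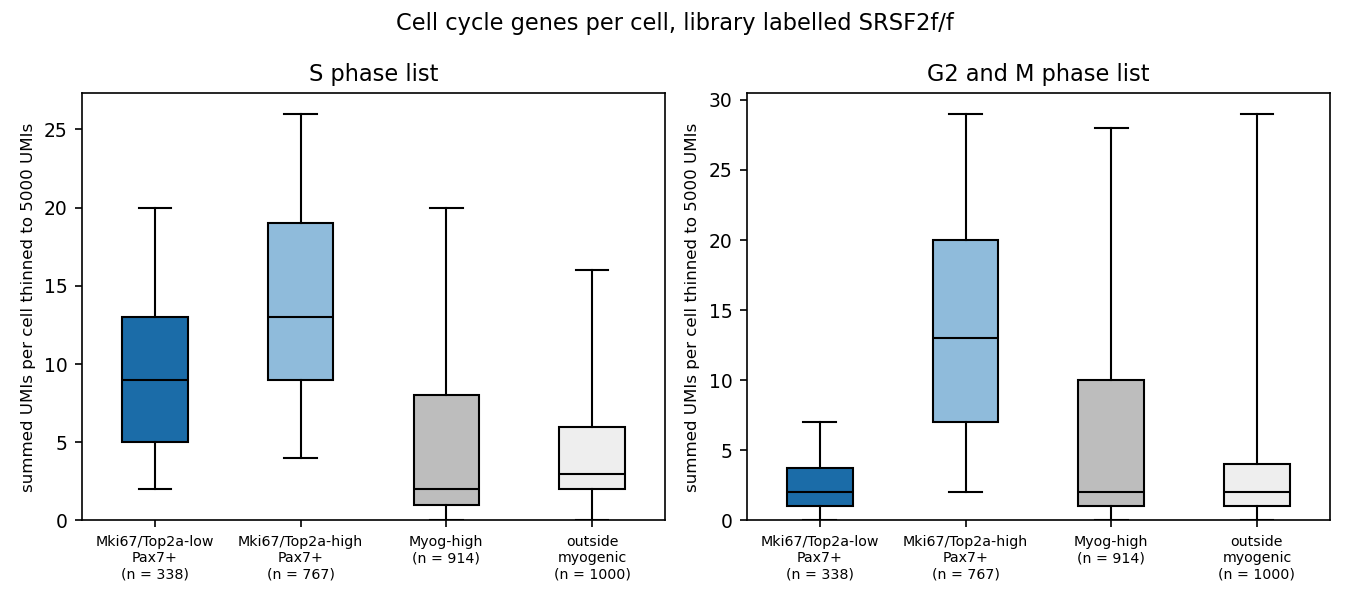
Summed UMIs per cell of the S phase list and of the G2 and M phase list after thinning each cell of the library labelled SRSF2f/f to 5000 UMIs, as boxes (quartiles and median) with whiskers from the 5th to the 95th percentile of cells. The S phase median of the Mki67/Top2a-low cells (9) lies above those of the Myog-high cells (2) and the cells outside the muscle lineage (3), while the G2 and M medians of these 3 populations are all 2.

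Single genes of the replication machinery are given next. Mcm3 and Mcm6, subunits of the replicative helicase, stood at 170 and 196 CPM in members, at 179 and 177 CPM in Mki67/Top2a-high cells and at 71.9 and 84.5 CPM outside the muscle lineage. Ccne1, the cyclin of the G1 to S transition, stood at 213, 245 and 36.5 CPM. In contrast, Rrm2, the small subunit of ribonucleotide reductase, stood at 32.5 CPM in members and 143 CPM in Mki67/Top2a-high cells. Among members, Mcm3 was lowest in the 142 cells with 0 UMIs of Mki67 and Top2a (132 CPM; exact Poisson interval 115 to 151) and stood at 192 CPM with 1 UMI (172 to 215) and at 197 CPM with 2 (170 to 227). The intervals of the last pair overlapped each other and not that of the first.

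The first question was how the members of the library labelled SRSF2f/f differed from its Pax7+ cells with more Mki67 and Top2a. Genes with at least 20 UMIs expected in the smaller population were compared, and a gene was counted when its level differed at least 2-fold. Of 9184 genes, 24 were higher in members (0.261%) and 327 were lower (3.56%), with a median log2 ratio of -0.08. The lower genes were led by genes of mitosis. Of 22 G2 and M genes, 21 were lower, with a median log2 ratio of -3.16. Aurkb, a kinase of chromosome segregation, stood at 2.10 against 67.4 CPM (log2 ratio -5.00, interval -6.14 to -4.07), Esco2, which acetylates cohesin, at 1.64 against 83.3 CPM, and Kif11, the spindle motor, at 5.14 against 123 CPM. Ccnb2 was the exception, at 54.9 and 54.7 CPM. Since the populations were divided on Mki67 and Top2a, mitotic genes differ here by choice. Of 23 S phase genes, 0 were higher and 5 lower (Rrm1, Rrm2, Tyms, Cdc6 and Ccne2; median -0.37). The median depth also differed, at 12001 UMIs in members and 17690 in Mki67/Top2a-high cells. With the rule applied after each cell was thinned to 5000 UMIs, 30 genes were higher and 197 lower of 5446. The small count of higher genes depended on the settings. It was 2 (325 lower) with 0 UMIs of Mki67 and Top2a in members and 8 (340 lower) with 0 UMIs of Myog. With a limit on UMIs of immune, epithelial, neural and Schwann cell genes, which kept 281 members, it was 7 (328 lower). Fibroblast, chondrocyte and erythroid genes were not part of that limit. With at least 10 expected UMIs it was 55 (448 lower).

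Most listed genes of muscle identity differed by less than 2-fold between the Pax7+ populations of the library labelled SRSF2f/f. Of 20 transcription factors of the progenitor list, 0 differed 2-fold (median -0.17). Msc stood at 149 against 124 CPM, and Pax3, the paralogue of Pax7 that acts in migrating limb progenitors, at 9.58 against 9.42 CPM. None of the 13 Notch pathway genes compared differed 2-fold (median -0.01). Notch3 had 41.6 against 41.8 CPM, and the target Hey1 had 22.0 against 20.4 CPM. Of 21 surface and matrix genes of satellite cells, 1 was higher, Gpx3, a secreted glutathione peroxidase, at 26.9 against 13.4 CPM (log2 ratio 1.01, interval 0.66 to 1.35). At equal depth Gpx3 was seen in 13.6% of members, 5.87% of Mki67/Top2a-high cells and 5.37% of endothelial cells. Igfbp5, which binds insulin-like growth factors, was 1.28-fold higher and the cyclin Ccnd2 1.46-fold higher.

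In the library labelled SRSF2f/f, other lists fixed for muscle and general cell functions held 3 genes past 2-fold. The neural markers, 2 of 3 higher, are given with the neural barcode below. Of 18 growth factor genes, 26 matrix genes, 20 stress genes, 15 p53 and apoptosis genes, 16 SR protein genes, 15 glycolysis genes and 18 imprinted genes, 0 differed 2-fold. Of 17 genes of the G1 machinery 1 was lower (Cdkn2c), as was 1 of 23 differentiation genes (Jam2) and 1 of 18 Hox genes (Hoxb4). Cdkn1c, the imprinted inhibitor p57 of cyclin-dependent kinases, was seen in every member, with 6671 CPM in members (per cell 1038 to 14358 CPM, median 6602) and 6291 CPM in Mki67/Top2a-high cells. It was abundant elsewhere too, at 4709 CPM in Pax7-zero cells and 3165 CPM outside the muscle lineage. Cdkn1a, the inhibitor p21, had 47.7 against 74.4 CPM.

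In the library labelled SRSF2f/w, 10 members stood against 28 Mki67/Top2a-high cells. Of 890 genes compared there, 4 were higher in members (0.449%) and 35 lower (3.93%). Of 3 progenitor transcription factors 1 was higher and 0 lower (median 0.96), and of 3 growth factor genes 1 and 0 (median 0.50), unlike in the other library. Msc had 187 against 114 CPM, Igfbp5 505 against 230.0 CPM (62 and 141 UMIs) and Gpx3 57.0 against 19.6 CPM (7 and 12 UMIs). These 3 genes were on the same side in both libraries. Ccnd2 was not, with 89.5 against 147 CPM (11 and 90 UMIs).

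The highest genes of this comparison came from 1 cell. They were Nefl, Nefm, Sncg, C130073E24Rik, Tubb3, Rtn1, Stmn3, Snhg11, Tagln3 and Prph, mostly genes of neurons, and at least 70.2% of the UMIs of each in members lay in the barcode of 54491 UMIs. Without the neural and the erythroid barcode, 10 genes were higher and 338 lower of 9129. The 10 were Pdlim3, Tec, Malt1, Flywch2, Csrnp2, Dancr, Gm43672, Ezh1, Lor and Gpx3, with log2 ratios from 1.02 to 1.16.

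Against Myog-high cells, which stand further along in differentiation, members of the library labelled SRSF2f/f had higher levels of many progenitor and matrix genes and lower levels of fusion and sarcomere genes. Of 9097 genes, 552 were higher in members (6.07%) and 779 lower (8.56%), with a median log2 ratio of 0.05. The balance depended on the rule, at 455 higher and 432 lower of 5119 after thinning to 5000 UMIs and at 235 and 626 of 6544 with 0 UMIs of Mki67 and Top2a in members. Without the neural and the erythroid barcode 519 were higher and 792 lower of 9043, and the 3 neural markers were all higher in members with both barcodes in, the neural barcode holding 57.5% of their UMIs. Of 33 differentiation and fusion genes, 31 were lower and 1 higher (median -3.18). Mymx and Mymk, the membrane proteins that fuse myoblasts, stood at 2.10 and 1.64 CPM in members against 350 and 134 CPM in Myog-high cells. Actc1 stood at 204 against 3305 CPM, the giant sarcomere protein Ttn at 62.2 against 1017 CPM and embryonic myosin Myh3 at 0.935 against 201 CPM. The higher gene was Cdon, a cell surface receptor of myoblasts, at 48.4 against 19.2 CPM. Among the compared genes, 15 were at 0 UMIs in members, among them Tex14, Myo18b and the calsequestrin Casq2. Tex14 was at least 54.6-fold lower and Myo18b at least 53.8-fold lower, on a limit of 3 counts over the members.

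The progenitor lists leaned the other way. Of 19 transcription factors 7 were higher and 1 lower (median 0.48), and Msc was 7.95-fold higher (log2 ratio 2.99, interval 2.78 to 3.20). Of 20 surface and matrix genes of satellite cells 9 were higher and 1 lower (median 0.80). Gpx3 stood at 26.9 against 1.18 CPM, Chodl, a membrane lectin, at 45.8 against 4.11 CPM and Vcam1, an adhesion molecule, at 44.9 against 11.2 CPM. The lower one was Cdh15, the muscle cadherin, at 76.2 against 157 CPM. Of 26 matrix genes 14 were higher and 0 lower (median 1.13). Col4a1 and Col4a2, chains of basement membrane collagen, stood at 479 and 262 CPM against 148 and 70.8 CPM, and Vcan, a proteoglycan, at 283 against 72.3 CPM.

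In the library labelled SRSF2f/w, 10 members stood against 55 Myog-high cells, and of 842 genes 11 were higher in members (1.31%) and 74 lower (8.79%). Of 20 differentiation genes compared there, 19 were lower and 0 higher (median -3.68), as in the other library. The matrix list went the other way, with 0 of 5 genes higher and 3 lower (median -1.10). The 3 were Col1a1 at 32.6 against 761 CPM, Sparc at 269 against 870.0 CPM and Col1a2 at 301 against 644 CPM, while fibroblast markers summed to 57.0 CPM in those members and 794 CPM in those Myog-high cells, and chondrocyte markers to 147 and 1698 CPM. Their part in the result was not tested. Col4a1, which had too few UMIs to be counted, stood at 423 against 91.8 CPM (52 and 96 UMIs).

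Genes of the Notch pathway lay on both sides, with receptors and ligands split. In the library labelled SRSF2f/f, the receptor Notch3 stood at 41.6 CPM in members and 5.08 CPM in Myog-high cells, the targets Hey1 and Hes1 at 22.0 and 67.3 CPM against 4.04 and 30.7 CPM, the modifier Lfng at 17.1 against 5.85 CPM and the ligand Jag1 at 11.7 against 3.83 CPM. The target Heyl, at 13.8 against 7.10 CPM, and the receptor Notch1, at 34.1 against 55.8 CPM, were short of 2-fold. The ligand Dll1 was higher in Myog-high cells, at 3.97 against 41.2 CPM (log2 ratio -3.37, interval -4.16 to -2.68), as were Hes6 (39.7 against 137 CPM) and the DNA-binding partner Rbpj (143 against 289 CPM). In all, 5 of 14 genes were higher and 3 lower in members (median 0.64).

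Genes of the cell cycle followed both directions. Of 23 S phase genes 10 were higher in members and 1, Rrm2, was lower (median 0.62), and of 22 G2 and M genes 19 were lower (median -2.40), Myog-high cells with many mitotic transcripts being included in that population. Of the G1 machinery 2 were higher and 3 lower. Cdkn1a stood at 47.7 against 540 CPM and Rb1, the retinoblastoma protein, at 15.4 against 177 CPM, whereas Ccnd2 stood at 193 against 68.5 CPM. Cdkn1c was lower in members, at 6671 against 11897 CPM, without reaching 2-fold. Of 18 growth factor genes 3 were higher and 0 lower, with Igfbp5 at 548 against 111 CPM and Pdgfa, a platelet-derived growth factor chain, at 322 against 152 CPM. Of 20 stress genes 0 were higher and 1 lower (median 0.16), of 16 p53 and apoptosis genes 2 and 2, of 15 glycolysis genes 1 and 2, of 18 imprinted genes 1 (Peg10) and 0, and of 13 Hox genes 1 and 0.

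**Figure D4:**
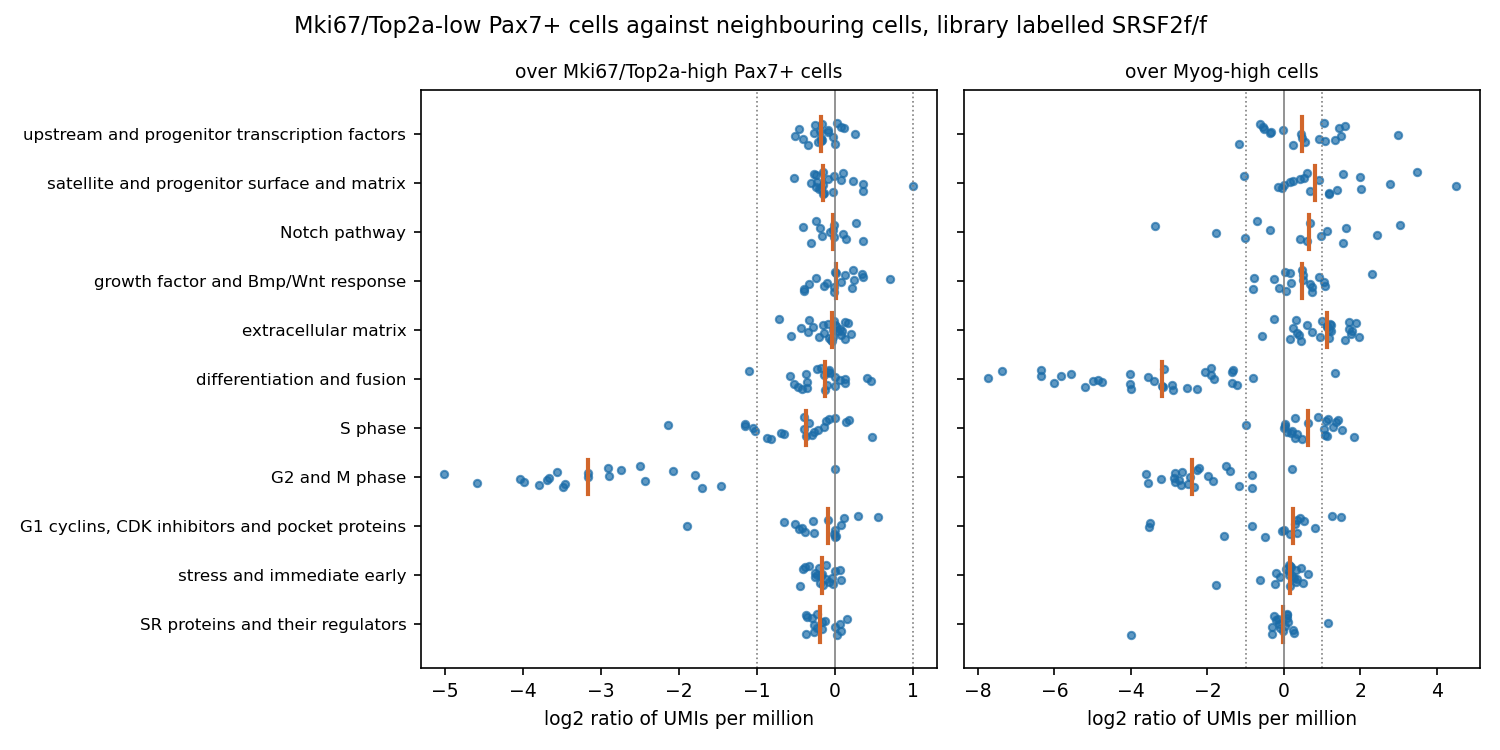
Log2 ratio of the CPM of single genes (points), grouped by 11 gene lists, for Mki67/Top2a-low Pax7+ cells over Mki67/Top2a-high Pax7+ cells (left) and over Myog-high cells (right) in the library labelled SRSF2f/f, with the median of each list as an orange bar and the 2-fold lines dotted. On the left the G2 and M list stands away from 0 (median -3.16), and on the right the differentiation list (-3.18) and the G2 and M list (-2.40) lie lower while the matrix list (1.13) lies higher.

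Pax7-zero cells, which met the rule in all but Pax7, were a mixed population. In the library labelled SRSF2f/f, of 9525 genes 212 were higher in members (2.23%) and 1236 lower (13.0%), with a median log2 ratio of -0.08. With the rule applied after thinning to 5000 UMIs, 13 were higher and 252 lower of 5547, and without the neural and the erythroid barcode 219 and 1287 of 9489. Fibroblast markers summed to 2398 CPM and chondrocyte markers to 2955 CPM in the Pax7-zero cells, against 307 and 288 CPM in members, and all 6 and all 3 of these genes were lower in members. Ibsp, the bone sialoprotein, stood at 18.7 against 1972 CPM. Of 21 transcription factors of the progenitor list, 9 were higher in members and 3 lower (median 0.68). Msc stood at 149 against 38.5 CPM. Cck, which encodes a peptide hormone, had 111 against 24.3 CPM and Dtx4 had 53.7 against 12.0 CPM. Of 26 matrix genes 2 were higher in members and 14 lower (median -1.11), of 20 stress genes 0 and 12 (median -1.31), of 20 growth factor genes 3 and 9 (median -0.86) and of 27 differentiation genes 1 and 9 (median -0.09). Of 23 S phase genes 7 were higher and 0 lower (median 0.83), and of 16 SR protein genes 0 differed 2-fold. In the library labelled SRSF2f/w, of 851 genes 22 were higher in members and 123 lower. Of 3 surface and matrix genes of satellite cells 0 were higher there and 2 lower (median -1.09), against 6 and 1 of 21 in the other library. Of 4 growth factor genes 1 was higher and 1 lower (median 0.25), and of 14 stress genes 1 and 3 (median -0.63). Immune and mast cell markers summed to 414 and 632 CPM in its 30 Pax7-zero cells. The part of free Myod1 and Myf5 RNA in the Pax7-zero population was not tested.

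Compared with the 8940 cells outside the muscle lineage, 207 of 10229 genes were higher in members (2.02%) and 2278 were lower (22.3%), with a median log2 ratio of -0.27. The counts were 206 and 2325 without the neural and the erythroid barcode. After Pax7 and Myod1, which the rule fixed, the highest included Msc (58.8-fold), Fitm1 (36.0-fold; lipid droplet formation), Cck (26.7-fold), Mrln (25.6-fold; the calcium pump regulator myoregulin), Kcne1l, Cdh15 (19.9-fold), Vgll2 (18.6-fold; a transcriptional cofactor), Neb, Fgfr4 (13.1-fold; a receptor of fibroblast growth factors), Dtx4, Tnnt1 (12.4-fold) and Ank1. Among these, Mrln, Neb and Tnnt1 serve calcium handling or the sarcomere in muscle fibres, and Tnnt1 stood at 325 CPM in members, 26.2 CPM outside the lineage and 1159 CPM in Myog-high cells. Of 20 stress and immediate early genes 15 were lower in members and 0 higher (median -1.55), with Fos at 294 against 1519 CPM and Jun at 631 against 1975 CPM. Of 23 S phase genes 8 were higher and 0 lower (median 0.91). The progenitor lists were split. Of 16 transcription factors 7 were higher in members and 3 lower (median 0.003). Of 20 surface and matrix genes of satellite cells 7 were higher and 4 lower (median -0.38).

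The members were not uniform. The 100 members with Myf5 but no Myod1 UMI and the 138 with Myod1 but no Myf5 UMI were compared over 5568 genes, of which 69 were higher in the Myf5-only cells (1.24%) and 56 lower (1.01%), with a median log2 ratio of 0.02. Without the neural and the erythroid barcode these counts were 72 and 33 of 5509. A missing UMI of a sparse gene does not show that the gene was off, and median depths were 11089.5 and 11925 UMIs. Of 15 differentiation genes 4 were lower in Myf5-only cells and 0 higher (median -0.72). Actc1 stood at 96.7 against 341 CPM, Ttn at 11.8 against 108 CPM and Mstn, the muscle growth inhibitor myostatin, at 16.0 against 43.2 CPM.

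Msc was higher in the Myf5-only cells, at 195 against 115 CPM (1.69-fold; log2 ratio 0.76, interval 0.48 to 1.04), as were Vcam1 at 63.0 against 29.4 CPM and Gpx3 at 37.8 against 17.9 CPM. Among stress genes 3 of 18 were higher and 0 lower (median 0.53), with Fos at 487 against 212 CPM. Fibroblast markers moved with them, with 1 of 2 compared higher (Dcn, 89.9 against 39.7 CPM) and Col1a1 at 304 against 172 CPM, and their part in the result was not tested. Of 23 S phase genes 0 differed 2-fold, with a median of -0.38. The genes with the highest ratios outside the rule and the 2 barcodes set apart were Penk, Twist1 and Crabp1, found in 12, 17 and 30 of the 99 Myf5-only cells that remained, and 1 cell held 47.5% of the Penk UMIs.

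The last question was whether the members of the libraries differed, and here the 10 cells of the library labelled SRSF2f/w set the limit. Only 813 genes had 20 expected UMIs, of which 16 were higher in the library labelled SRSF2f/f (1.97%) and 4 lower (0.492%), with a median log2 ratio of 0.02. Without the neural and the erythroid barcode the counts were 12 and 4 of 809. The lean to higher genes was lost with 0 UMIs of Mki67 and Top2a in members (6 and 5 of 383). With the rule applied after thinning to 5000 UMIs the counts were 0 and 1 of 162. Srsf2 stood at 229 CPM in the 339 members (214 to 243) and at 195 CPM in the 10 members of the library labelled SRSF2f/w, where 24 UMIs were spread over 9 cells. The log2 ratio was 0.23 (-0.36 to 0.88), and its interval included 0. Per cell the median was 3 UMIs (0 to 12) in the first library and 2.5 (0 to 6) in the second. In the library labelled SRSF2f/f, Srsf2 stood at 296 CPM in Mki67/Top2a-high cells, 215 CPM in Myog-high cells, 188 CPM in Pax7-zero cells and 205 CPM outside the muscle lineage. None of the 9 SR protein genes compared between the libraries differed 2-fold.

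The more abundant progenitor genes of the lists differed by less than 2-fold between the libraries. Igfbp5 stood at 548 and 505 CPM, Pdgfa at 322 and 358 CPM, Cdkn1c at 6671 and 6448 CPM, Col4a1 at 479 and 423 CPM, Tnnt1 at 325 and 309 CPM and Mcm3 at 170 and 163 CPM. Of 3 transcription factors, 3 surface genes, 3 growth factor genes, 5 S phase genes, 3 differentiation genes, 7 glycolysis genes and 12 imprinted genes compared, 0 differed 2-fold. With so few genes compared, most members of these lists could not be judged at this depth.

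Genes past 2-fold included those of other cell types and of stress, and others that were in neither kind of list. Among the latter, the histone gene Hist1h2ap stood at 330 CPM in the library labelled SRSF2f/f against 89.5 CPM (log2 ratio 1.88, interval 1.04 to 2.89). Ifitm2 stood at 237 against 81.4 CPM and Tagln at 277 against 97.7 CPM. These 3 genes had 11, 10 and 12 UMIs in the library labelled SRSF2f/w. Hba-a1, Hbb-bs, Hbb-bt and Hba-a2 were higher in the library labelled SRSF2f/f, and between 91.3% and 96.0% of their UMIs lay in the erythroid barcode. Col2a1, a cartilage collagen, stood at 249 against 122 CPM, barely past 2-fold, with the 2 members rich in chondrocyte markers in the sum. Of 9 matrix genes, 3 were higher in the library labelled SRSF2f/f and 0 lower (Col1a1, Col3a1 and Sparc; median 0.32). Col1a1 stood at 215 against 32.6 CPM (log2 ratio 2.72, interval 1.36 to 4.60) and Col3a1 at 498 against 179 CPM, while the fibroblast markers summed to 307 and 57.0 CPM in the members and to 2889 and 1621 CPM in cells outside the muscle lineage of the same libraries. Their part in the result was not tested. Ccnd2 stood at 193 against 89.5 CPM (2.15-fold; 11 UMIs in the library labelled SRSF2f/w). Among 8 stress genes compared, 3 were lower in the library labelled SRSF2f/f and 0 higher (median -0.83). Hspb1, a small heat shock protein, stood at 243 against 814 CPM, Jun at 631 against 1864 CPM and Fos at 294 against 749 CPM. Single cells weighed heavily, since 1 of the 10 cells held 62 of the 100 Hspb1 UMIs and 1 held 42.4% of the Fos UMIs. The members were not alone in the lower Fos, Jun and Hspb1. In the same order of libraries, Fos stood at 317 against 682 CPM in Mki67/Top2a-high cells and at 267 against 500 CPM in Myog-high cells. Jun stood at 725 against 1120 CPM and at 460 against 894 CPM. Hspb1 stood at 230 against 517 CPM and at 375 against 1041 CPM, but at 257 against 263 CPM in Pax7-zero cells. Pax7-zero cells differed in the same direction (Fos 1071 against 1708 CPM, Jun 1524 against 2086 CPM). So did cells outside the muscle lineage, by less (Fos 1519 against 1636 CPM, Jun 1975 against 2228 CPM). In endothelial cells Fos and Jun were slightly higher in the library labelled SRSF2f/f (Fos 1038 against 981 CPM, Jun 1753 against 1549 CPM).

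**Figure D5:**
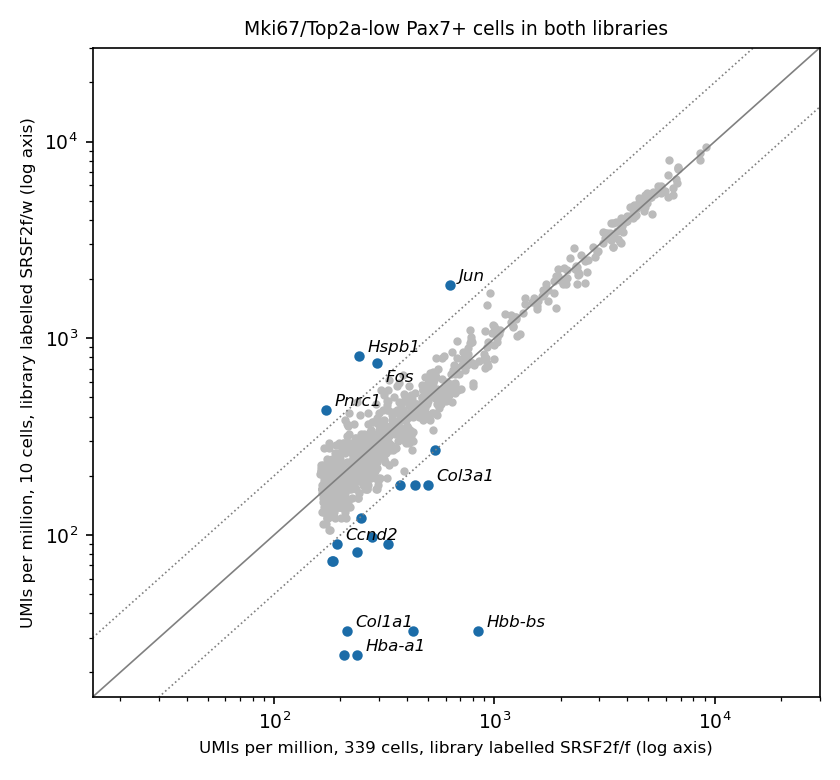
Level of each of the 813 compared genes in members of the library labelled SRSF2f/f (x axis, 339 cells) and of the library labelled SRSF2f/w (y axis, 10 cells) in CPM on log axes, with the line of equal levels, the 2-fold lines dotted and genes past 2-fold in blue; a gene with no UMI in the second library is drawn at the limit of 3 counts. Most genes lie near the line of equal levels, with Hspb1, Jun, Fos and Pnrc1 above the upper line and the haemoglobin and collagen genes below the lower one.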

How the data were processed

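The authors aligned 10x Genomics 3′ reads to mm10 and deposited 1 aggregated matrix of raw UMI counts per gene and barcode, with reads down-sampled to like depth between the 2 libraries. The submitters' processing notes list Cell Ranger 3.1.0, STAR and Seurat 3.1.1. The deposited run summaries give other values, of which the number of cells joined each barcode suffix to its library. From the counts, populations were set by UMI thresholds, summed and given as CPM. Genes with at least 20 UMIs expected in the smaller population were compared, with exact 95% binomial intervals of the ratio, and 2-fold was the limit for a count. With 1 library per group no test was run. Against 0, the ratio uses 3 counts. Shares were also taken after thinning to 5000 UMIs per cell. No doublet caller was run. An upper UMI limit and a limit on UMIs of Ptprc, Srgn, Krt5, Epcam, Dcx, Tubb3, Cdh19 and Sox10 served as alternatives. The latter did not screen for fibroblast, chondrocyte or erythroid genes.

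The members and the gene lists were chosen with earlier results of these data known. Named were genes of the lists, Srsf2 and the genes with the 10 highest and 10 lowest ratios of a comparison (15 highest against cells outside the muscle lineage, 5 and 5 for Myf5-only against Myod1-only), with ties at 0 ordered by UMIs of the other side. Leaving out the neural and erythroid barcodes was added after the data were seen. Some genes that this rule names are not reported here. Ddit3, Aldoa and Tmem8c had no unique symbol match. Coordinates are from GENCODE M21. Tested on simulated data for members against Mki67/Top2a-high cells (9148 genes), the intervals covered the ratio that had been put in for 95.7%. The simulated sums were Poisson draws, as the intervals assume. The simulation therefore checks the computation only and holds no spread between cells. Python 3.11.15, numpy 2.4.6, pandas 2.3.3 and scipy 1.17.1 were used.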

Additional observations from a re-analysis of the deposited data

How the results depend on the processing

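Of 76 alternative values, 61 stayed within the spread or within 1.5 times of the value reported, 15 moved and 0 reversed. The log2 ratio of the share of members between the libraries, 4.79, ranged from 4.47 to 5.49 over 9 alternatives and was 1.01 with barcodes of the muscle lineage as the denominator. That of Srsf2 ranged from 0.12 to 0.84. Genes past 2-fold between the libraries, 20 in the report, numbered 13 with a mitochondrial limit of 5%, 11 with 0 UMIs of Mki67 and Top2a in members, 1 with the rule applied after thinning to 5000 UMIs, 6 with at least 50 expected UMIs and 69 with at least 10. Applied after thinning, the rule gave 227 genes against Mki67/Top2a-high cells (351 in the report), 887 against Myog-high cells (1331) and 265 against Pax7-zero cells (1448). With at least 50 expected UMIs, 827 and 871 genes were past 2-fold against Myog-high and Pax7-zero cells, and with 0 UMIs of Mki67 and Top2a 861 were past 2-fold against Myog-high cells. Thinned to 2000 in place of 5000 UMIs, the shares of members with a UMI were 22.4% for Msc (46.4%), 63.4% for Igfbp5 (84.3%) and 40.4% for Srsf2 (63.9%). Fewer genes or UMIs were compared in the stricter settings. No paired analysis was possible because each group was 1 library. The limit of the comparison between libraries was the 122838 UMIs of 10 cells.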

Other observations

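Transcripts of the Y chromosome were present in the members of both libraries. Ddx3y stood at 90.2 CPM in the library labelled SRSF2f/f and 57.0 CPM in the library labelled SRSF2f/w, and Xist was at 0 UMIs in both. Over all barcodes, Ddx3y stood at 116 and 119 CPM and Xist at 0.122 and 0.156 CPM.

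Mast cell markers, which were at 1044 CPM in cells outside the muscle lineage of the library labelled SRSF2f/w and at 93.1 CPM in those of the other library, were found in 5 of the 10 members of the library labelled SRSF2f/w, with 1 UMI each, and in 6 of the 339 members of the library labelled SRSF2f/f.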
